A study of Saccharomyces cerevisiae with 6 samples.

Results

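The response of budding yeast to rapamycin during growth in YPD, the rich laboratory medium of yeast extract, peptone and dextrose, was read from 2 of the 6 arrays in the series. Its members are all probes of the deposited table that had a value on both of these arrays, which were chosen by their labels and not by their values. Of 6210 probes, 5978 qualified, 5405 with a gene symbol and 573 without. Averaging the probes of the 34 genes in the table that had more than 1 gave 5943 features, which were 5370 named genes and 573 unnamed probes. Each array set a rapamycin-treated culture (Cy5) against an untreated one (Cy3), both of wild-type strain S288c in YPD. The labels give poly(A) RNA as the material. In the same way, 2 further arrays compared S288c with and without rapamycin in MDN, a medium that the labels name only by this abbreviation, and 1 array set untreated S288c in MDN against untreated S288c in YPD. The array that used SCD medium is not part of any result here. The sources used here do not give the dose of rapamycin, the length of treatment or the cell density.

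Rapamycin enters the cell, binds the small isomerase Fpr1 and, as that complex, blocks the kinase complex TORC1. In yeast growing on plentiful nitrogen, TORC1 keeps ribosome production running and holds back the genes for poor nitrogen sources. It also restrains autophagy and the general stress programme. TORC1 acts on transcription through cytoplasmic retention of the GATA activators Gln3 and Gat1, through the kinase Sch9, and through factors at ribosomal protein promoters. The Gcn2 kinase and the activator Gcn4 turn on amino acid synthesis when amino acids run short.

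Values are log2 ratios of treated over untreated RNA, so that 1 is a doubling. The scanner signals behind them were not analysed here, and no statement can be made about absolute levels or between genes. The direction, Cy5 over Cy3, was read from the dyes in the labels. It is the likely one, but the table does not state it, so all directions would turn over together if the ratio had been formed the other way. Dyes were not swapped, and a dye effect of a single probe would remain in its value. Ratios were kept to 2 decimals, and low ratios are therefore coarse. The medians of the YPD arrays were 0.01 and 0.00, and across 5978 probes the arrays correlated at r = 0.950 (probes are not independent replicates). Their values for a probe differed by a median of 0.18, and for 104 probes by more than 1. Whether the arrays came from separate cultures is not said, so that p-values and errors cover only how far these arrays lay apart, a spread that can be technical. Errors after ± are standard errors of a limma fit with n = 2 YPD arrays, and calls are a Benjamini-Hochberg adjusted p under 0.05 over all 5943 features. The fit took its spread from the YPD and MDN rapamycin arrays together.

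A large share of the measured transcriptome moved. By limma, 3801 of 5943 features (64%) changed, 1946 up (32.7%) and 1855 down (31.2%). These shares up and down are the background of the list counts below. At least 2-fold changes were called for 622 features up (10.5%) and 674 down (11.3%). The tails were uneven further out, with 161 features up and 302 down at least 4-fold, and 16 up and 35 down at least 16-fold. The count depended on having both arrays: 2272 features were called without YPD array 1 and 2460 without YPD array 2. With the YPD arrays fitted alone, which is also what leaving out either MDN array amounts to for this test, 2980 were called. Of the 100 lowest features 68 were cytosolic ribosomal protein genes, 15 were ribosome assembly or RNA polymerase I and III genes and 9 were unnamed probes. Of the 100 highest, 24 belonged to the nitrogen lists, 21 to the amino acid and nucleotide lists, 8 to the stress lists and 39 to none of the 61 lists used here.

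**Figure D1:**
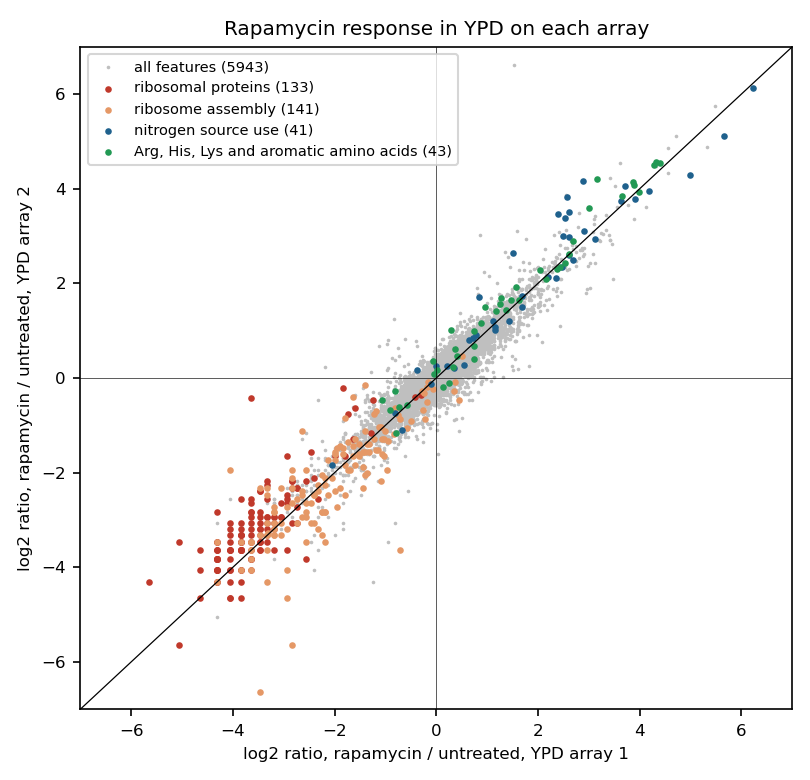
Each point is a feature, with its log2 ratio on YPD array 1 (x axis) and YPD array 2 (y axis); the line marks equal values. Ribosomal protein and ribosome assembly genes make up most of the lower left, and nitrogen source and amino acid genes much of the upper right. HAB1 (1.54 and 6.63) and UTP13 (-3.47 and -6.64) lie far from the line.

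Among the highest mean ratios were those of genes for taking up poor nitrogen sources. SNZ1, a vitamin B6 gene, and ARO5 were among the highest too, with means of 5.11 and 4.92. Of 11 nitrogen source permeases measured, 9 rose and 2 fell, with a median of 2.24 against 0.012 for all features. GAP1, the general amino acid permease, read 6.23 and 6.14 on the arrays, a mean of 6.18 ± 0.10 or 72.6-fold (adjusted p = 5.8e-05). MEP2, the high-affinity ammonium permease, read 5.65 and 5.12, and its relatives MEP1 and MEP3 had means of 1.72 ± 0.08 and 0.84 ± 0.13. DAL5, which takes up allantoate, read 5.0 and 4.30 (25.1-fold). GAP1 and MEP2 were high on both arrays, and the ammonium permeases kept one order, MEP2 above MEP1 above MEP3, on each. DUR3, the urea permease, rose to 3.90 ± 0.11, UGA4, the GABA permease, to 2.42 ± 0.10 and OPT2, an oligopeptide transporter, to 2.24 ± 0.13. The permeases for uracil, FUR4, and uridine, FUI1, were the members that fell, by 0.77 ± 0.09 and 0.88 ± 0.12. MEP3 was not called without YPD array 1 (adjusted p = 0.086) or YPD array 2 (adjusted p = 0.103).

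The transcription factors of nitrogen control rose as well. Among 8 GATA factors and their regulators 6 rose and none fell. DAL80, a GATA repressor whose own gene is under nitrogen control, read 3.90 and 3.79 (14.4-fold). The repressor GZF3 stood at 1.31 ± 0.09 and the activator GAT1 at 1.16 ± 0.09. GLN3, the other activator, read 0.84 and 1.70 and was not called without YPD array 2 (adjusted p = 0.075) or with the YPD arrays fitted alone (adjusted p = 0.0503). NPR1, the kinase that stabilises permeases, stood at 1.09 ± 0.09. URE2, which holds Gln3 in the cytoplasm, had a mean of 0.29 ± 0.11 that did not pass (adjusted p = 0.071).

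Enzymes that break down poor nitrogen sources followed. Of 7 genes for allantoin and urea use, 5 rose and none fell, with a median of 2.93. DAL3, ureidoglycolate lyase, read 4.19 and 3.95, DAL7, a malate synthase of the pathway, 3.64 and 3.75, and DAL2, allantoicase, 2.90 and 3.10. DAL1, allantoinase, read 2.40 and 3.46. The 4 catabolic enzyme genes were all at least 4-fold up on each array, whereas their activators DAL82 and DAL81 stood at 1.11 ± 0.11 and -0.12 ± 0.10, the latter not called (adjusted p = 0.33). DAL82 was not called without YPD array 1 (adjusted p = 0.051). Of 15 genes for the breakdown of proline, arginine, GABA and asparagine, 13 rose and 1 fell, with a median of 2.60. CAR1, arginase, read 3.13 and 2.94, and PUT1, proline oxidase, 2.50 and 3.0. UGA3, the activator of GABA use, read 2.60 on both arrays. The enzymes that follow had smaller means, 0.72 ± 0.09 for CAR2, ornithine transaminase, and 0.79 ± 0.08 for PUT2. CAR2 was not called without YPD array 1 or array 2 (adjusted p = 0.080 and 0.093). The 4 ASP3 copies, which encode the cell wall asparaginase and are nearly identical, so that probes may share signal, had means between 2.96 and 3.52. ASP1, the cytosolic asparaginase, was the member that fell, with -2.06 and -1.84.

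Among 11 genes that make glutamate, glutamine and asparagine or interconvert them with alanine and aspartate, 7 rose and 1 fell (2 without YPD array 2). ALT1, the alanine transaminase, read 3.33 and 3.44, ASN1, asparagine synthetase, 2.76 and 2.66, and GLN1, glutamine synthetase, 2.27 and 2.24. GDH2, the NAD-dependent glutamate dehydrogenase that releases ammonium, read 1.46 and 2.34. The NADP-dependent enzymes differed, with GDH3 at 2.00 ± 0.22 and GDH1 at -0.31 ± 0.17, not called (adjusted p = 0.18). ALT2, the paralog of ALT1, fell by 1.28 ± 0.12. GDH3 lost its call without YPD array 2 (adjusted p = 0.064).

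**Figure D2:**
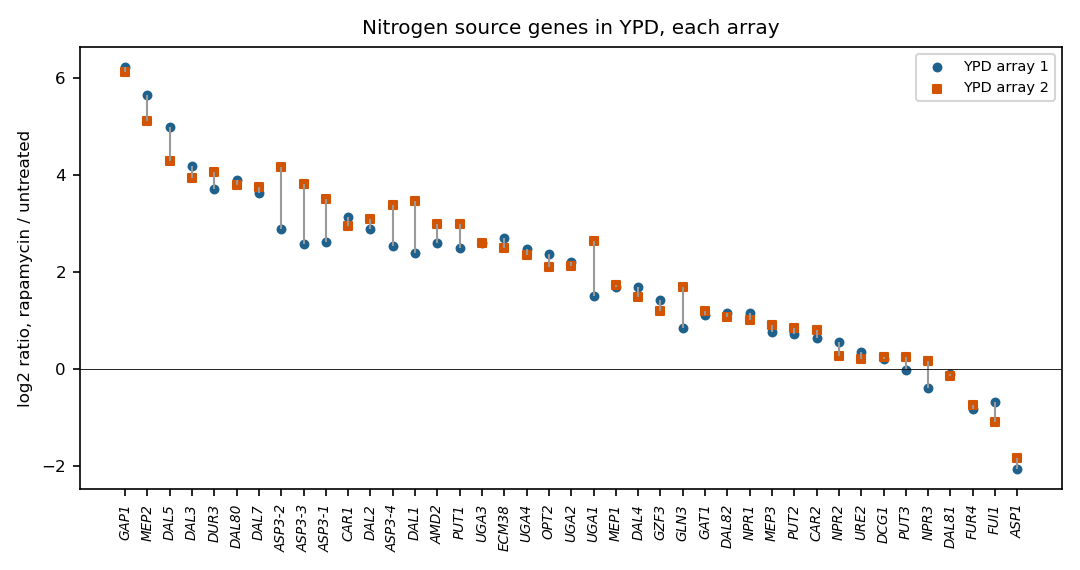
Log2 ratio of rapamycin over untreated (y axis) for each measured gene of the permease, GATA factor, allantoin and breakdown lists, ordered by mean; circles are YPD array 1, squares YPD array 2. GAP1, at 6.23 and 6.14, is the highest; the arrays lie furthest apart for the ASP3 copies, DAL1, UGA1 and GLN3, and FUR4, FUI1 and ASP1 are below 0 on both.

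Of 25 amino acid and peptide permeases listed apart from the nitrogen source permeases, 11 rose and 9 fell, with a median of 0.12. The shares were 44% and 36%, against 32.7% and 31.2% of all features. Without YPD array 1 the permeases that rose numbered 6 and those that fell 6, and without array 2 they numbered 7 and 8. Whether each of these permeases is free of nitrogen repression was not tested. AGP1, a permease of broad specificity, read 3.42 and 2.93, DIP5, for acidic amino acids, 2.09 and 2.51, and PTR2, for small peptides, 1.10 and 1.40. The methionine permease MUP1 was lowest, with -3.18 and -2.94 (8.36-fold down). TAT1, for tyrosine and tryptophan, read -2.94 and -2.32, the peptide transporter OPT1 -2.25 and -2.74, and the glutamine permease GNP1 -2.18 and -1.94. These 4 permeases were below -1.9 on each array, and BAP2 and BAP3, for branched-chain amino acids, followed at -1.0 ± 0.11 and -1.42 ± 0.10. Both BAP genes were no longer called without YPD array 1 (adjusted p = 0.051 and 0.055). TAT1, GNP1, BAP2 and BAP3, which fell, belong to the set that yeast induces through the sensor Ssy1 when amino acids are outside the cell; AGP1, DIP5 and PTR2, of the same set, rose.

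Genes for protein turnover in the vacuole rose broadly. Of 13 vacuolar proteases, peptidases and associated genes 12 rose and none fell, with a median of 1.5. CPS1, a carboxypeptidase that frees amino acids in the vacuole, read 4.33 and 4.49 (21.3-fold). APE1, aminopeptidase I, read 3.55 and 3.62. PEP4, proteinase A, which activates other vacuolar hydrolases, stood at 2.19 ± 0.08, the cysteine protease LAP3 at 2.45 ± 0.08 and carboxypeptidase Y, PRC1, at 1.97 ± 0.09. Among 29 autophagy genes 26 rose and 1 fell, with a median of 0.76 (15 rose without YPD array 1, and 14 rose and 2 fell without YPD array 2). ATG8, whose product is joined to the lipid of the growing autophagosome, read 2.37 and 1.90, and ATG33, of mitochondrial autophagy, 2.09 and 2.24. ATG7, the enzyme that activates Atg8, stood at 1.5 ± 0.15 and ATG9, a membrane protein of the core machinery, at 1.33 ± 0.09. ATG11, a scaffold of selective autophagy, was the member that fell, with -0.47 and -0.76.

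Amino acid synthesis rose in most lists, to sizes that reached those of the nitrogen genes. Of 11 arginine genes 7 rose and 2 fell, with a median of 1.41. ARG1, argininosuccinate synthase, read 4.40 and 4.56, ARG4, the lyase that follows it, 4.32 and 4.57, and CPA1, a subunit of carbamoyl phosphate synthase, 3.99 and 3.94. ARG8 and ARG82, a regulator, were the ones that fell, by 0.54 ± 0.15 and 0.58 ± 0.08, and neither was called without YPD array 1 (adjusted p = 0.081 and 0.104), nor ARG82 without array 2 (adjusted p = 0.101). Histidine genes rose in 6 of 7 and fell in 1, with a median of 2.12. HIS5 read 3.89 and 4.09, HIS4 3.0 and 3.59, and HIS6, an isomerase of the same pathway, -0.79 and -1.15. Lysine genes rose in 8 of 9 (6 without YPD array 1 and 5 without YPD array 2), led by LYS1, saccharopine dehydrogenase, with 2.62 and 2.63, and LYS4, homoaconitase, fell by 0.68 ± 0.08.

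Of 16 genes of aromatic amino acids 11 rose and 2 fell, with a median of 1.45. The highest were of breakdown and not of synthesis: ARO10, a decarboxylase, read 4.29 and 4.50 (21-fold) and ARO9, a transaminase, 3.87 and 4.15. TRP2, TRP3 and TRP4, of tryptophan synthesis, had means between 2.16 and 2.79, and ARO7, chorismate mutase, fell by 0.79 ± 0.09. Of 12 branched-chain genes 7 rose and 2 fell (1 without YPD array 1 or array 2). BAT2, the cytosolic transaminase, read 2.50 and 2.98, and LEU4, of leucine synthesis, 2.70 and 2.72, whereas ILV5, an enzyme of the mitochondrial branch, read -1.22 and -0.71. Of 20 genes of threonine, serine and glycine metabolism 13 rose and 4 fell (3 without YPD array 1 and 2 without YPD array 2). GCV2, of the glycine cleavage system, read 3.23 and 3.08, SHM2, the cytosolic serine hydroxymethyltransferase, 2.30 and 2.35, and CHA1, a deaminase for serine and threonine, 2.15 and 2.19. MIS1, which carries one-carbon units in mitochondria, was lowest with -3.18 and -2.64.

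Of 30 sulfur genes 10 rose and 10 fell, close to the shares of all features (32.7% up and 31.2% down), with a median of 0.014. STR2, which turns cysteine toward homocysteine, read 2.80 and 3.20, the transcription factor gene MET28 2.07 and 1.86. SAM1, S-adenosylmethionine synthetase, read -2.74 and -2.18, and CYS3, which makes cysteine, -1.74 and -1.79. Of the 3 measured proline synthesis genes only PRO2 was called, at 0.57 ± 0.12, and it was not called with the YPD arrays fitted alone (adjusted p = 0.064). GCN4, the activator of amino acid synthesis genes, read 0.72 and 0.88 (mean 0.80 ± 0.09, adjusted p = 0.0017). Of the 17 genes of its list, GCN4 among them, 2 rose and 13 fell, with a median of -1.06 (8 fell without YPD array 1 and 10 without YPD array 2). Besides GCN4 the one that rose was PCL5, a cyclin that leads to Gcn4 degradation, with 3.21 and 2.91. Those that fell were mostly translation factors of the eIF2B complex and tRNA modification genes such as GCD10 (-2.74 and -2.32), GCD14 (-1.94 and -1.89) and GCD1 (-1.64 and -1.40). The lowest was ASC1, a ribosomal protein, with -3.84 and -3.64.

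Nucleotide synthesis also divided. Of 20 purine genes 9 rose and 10 fell, with a median of 0.0043. The shares were 45% and 50%, against 32.7% and 31.2% of all features. ADE17, which completes inosine monophosphate, read 3.10 and 3.26, and ADE1 2.03 and 1.53. Genes after that branch point, toward guanine nucleotides, were low: IMD4, an inosine monophosphate dehydrogenase, read -3.84 and -4.06 and GUA1, which makes guanosine monophosphate, -3.47 and -3.06. Copies of IMD are close in sequence, and their probes may share signal. Of 10 pyrimidine genes 2 rose (20%) and 6 fell (60%). URA1 read -2.64 and -2.56 and URA7, CTP synthase, -1.69 and -2.40. URA8, the other CTP synthase, went the opposite way with 0.91 and 0.99. The orotate phosphoribosyltransferase genes were opposed too, URA5 with -0.94 and -1.25 and URA10 with 2.56 and 3.13. Vitamin B6 and thiamine genes rose in 13 of 20 and fell in 2 (7 rose without YPD array 1 or array 2), led by SNZ1 (5.34 and 4.88, 34.5-fold) and its divergently transcribed partner SNO1 (3.62 and 4.54). The lowest was PHO3, a phosphatase that frees thiamine, with -2.94 and -2.74.

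**Figure D3:**
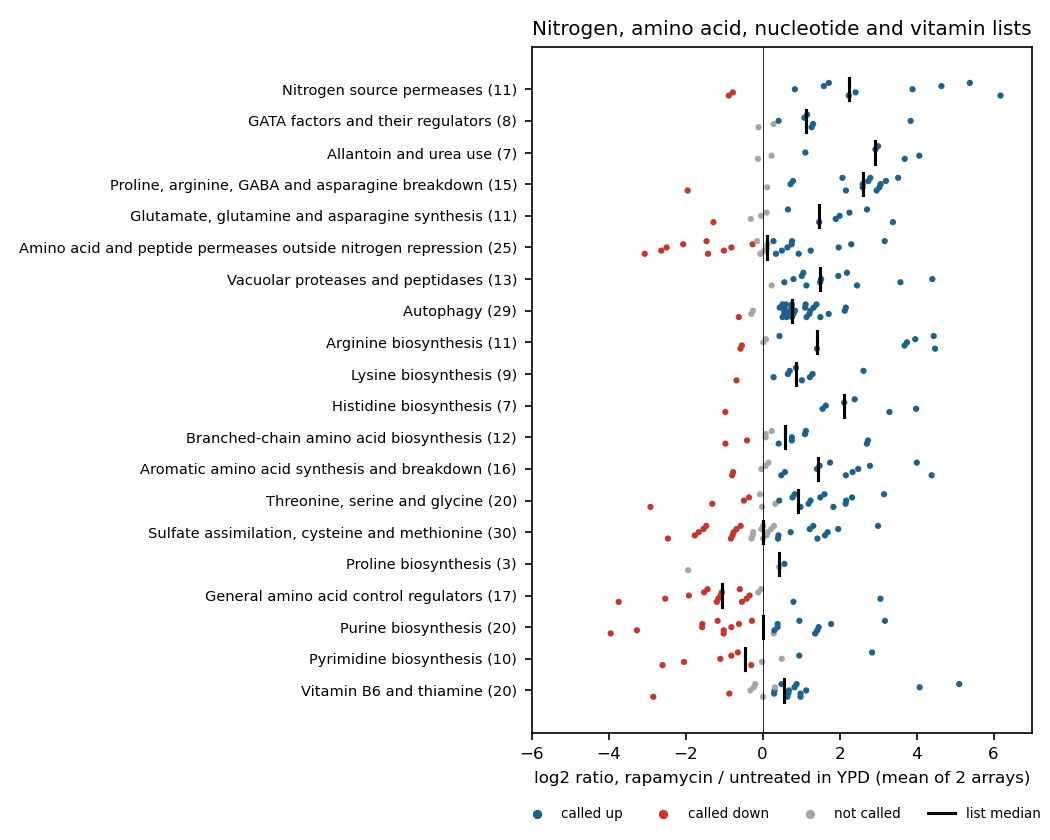
Each point is a measured gene, placed by its mean log2 ratio over the YPD arrays (x axis) in its list (rows, with the number measured); blue points were called up, red down and grey not called, and bars mark list medians. Allantoin and urea use has the highest median, 2.93, and the general amino acid control regulators the lowest, -1.06. The other amino acid and peptide permeases, sulfur and purine genes lie on both sides of 0. The row name of these permeases, outside nitrogen repression, is a list name that was not tested.

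Ribosomal protein genes fell almost without exception. Of 77 large subunit genes 75 fell and none rose, and of 56 small subunit genes all 56 fell, against a background of 31.2% of features. Their medians were -3.58 and -3.46, an 8-fold or larger fall being called for 162 features in all. RPL9A read -4.64 on both arrays, a ratio of 0.04 (25-fold down), RPL5 -4.64 and -4.06, and RPL3, a core protein of the large subunit, -3.32 and -2.94. In the small subunit RPS3 read -5.64 and -4.32, RPS0B -4.32 and -4.06, and RPS6B, whose product is phosphorylated under TORC1 control, -3.47 and -3.32. RPS22A was the lowest feature, with -5.06 and -5.64, but lost its call without YPD array 1 or array 2 (adjusted p = 0.055 and 0.061). Its MDN arrays, which share in the estimate of spread, read -4.64 and -6.64. The large subunit members that did not pass were RPL24B, with -3.64 and -0.42 (adjusted p = 0.076), and RPL32, with -1.84 and -0.22 (adjusted p = 0.073). Of the 47 features with a ratio of 0.05 or less on a YPD array 31 were ribosomal protein genes, so that the order among them is set in part by rounding.

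Most ribosomal proteins of yeast are encoded by a pair of genes, and within the 57 pairs measured the copies differed by a median of 0.45. Probes of a pair may share signal, which would bring their values together. In 15 pairs the copies differed by more than 1, among them RPL24, whose B copy was not called. Whether the probes of such pairs are rightly named was not tested. RPL12A stood at -4.19 and RPL12B at -0.41, RPL43A at -3.20 and RPL43B at -0.33, RPS9A at -3.58 and RPS9B at -0.86, and RPL31A at -3.85 and RPL31B at -1.22. In these 4 pairs the B copy had the smaller fall, while RPL4A (-1.12) fell less than RPL4B (-2.71). The pairs of RPS0, RPS19 and RPL8 had equal means.

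Ribosome assembly genes fell by less, on the same scale, but nearly as widely. Of 66 genes of the small subunit processome and 40S assembly 60 fell and 1 rose, with a median of -2.23. NOP56, of the box C/D particles that guide rRNA methylation, read -3.64 and -4.06, and NOP14 -3.64 and -3.84. NSR1, a nucleolar protein, read -4.32 and -3.47. UTP13 read -3.47 and -6.64, the latter the smallest ratio the table holds, and was not called without YPD array 2 (adjusted p = 0.073). UTP20, a processome scaffold, was the member that rose, with 0.51 and 0.46. Among 75 factors of 60S assembly 69 fell and none rose, with a median of -2.11. BRX1 read -4.32 on both arrays, the export factor ARX1 -3.64 on both, and NOP7 -3.84 and -3.47. NOP12 was further apart, with -2.84 and -5.64.

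RNA polymerase I and III and their factors fell in 28 of 41 and rose in 5 (1 without YPD array 1, 2 without YPD array 2 and 3 with the YPD arrays alone), with a median of -1.10. Polymerase I subunits were low: RPA43 read -3.64 and -3.47, RPA34 -3.18 and -3.84, RPA12 -2.64 on both and RPA135, a catalytic subunit, -1.60 and -1.64, while RPA190, the largest subunit, read -1.0 and -0.76. RRN3, which recruits the polymerase, fell by 1.11 ± 0.08. RRN5, of the upstream activation factor, rose instead, with 1.91 and 2.00, but was not called without YPD array 1 or array 2 (adjusted p = 0.056 and 0.058). MAF1, the repressor of polymerase III, had a mean of 0.25 ± 0.09 (adjusted p = 0.055). BRF1, of its initiation factor, read 0.61 and 1.15 and was not called without YPD array 1 or array 2 (adjusted p = 0.058 and 0.129). RNA polymerase II and its general factors fell in 11 of 23 and rose in 3, with a median of -0.17 (6 fell without YPD array 1 and 7 without array 2, 1 and 0 rose, and 1 rose with the YPD arrays alone).

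Translation factors fell in 40 of 45 and none rose, with a median of -1.16. YEF3, the fungal elongation factor, read -2.94 and -2.84, TEF4 -2.47 and -2.06, the initiation factor gene NIP1 -2.32 and -2.06, and the helicase gene DED1 -1.94 and -1.79. LIA1, which hydroxylates the translation factor eIF5A, was lowest with -4.64 and -4.06. TEF1, elongation factor 1A, fell by 0.62 ± 0.09 and was not called without YPD array 1 or array 2 (adjusted p = 0.054 and 0.057). Of 22 cytosolic aminoacyl-tRNA synthetases 12 fell and 3 rose (1 without YPD array 1 or array 2), with a median of -0.39. GLN4, for glutamine, read -1.69 and -1.56 and KRS1, for lysine, 0.41 and 0.62.

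Chaperones at the ribosome and nascent chain factors fell in 10 of 12 and rose in 1, with a median of -1.78. The probes of the near-identical Hsp70 genes SSB1 and SSB2 read opposite ways. SSB1 read 1.14 and 0.98, and SSB2 -3.47 and -3.06. Probes of such similar genes may share signal, and whether these are rightly named was not tested. Regulators of ribosomal gene transcription fell in 4 of 12 and none rose, with a median of -0.14. The share that fell, 33.3%, was near the 31.2% of all features. RAP1, which binds ribosomal protein promoters, read -1.43 and -1.06 and SCH9, the kinase, -0.81 and -0.69. IFH1, the coactivator, read 0.33 and -0.23, its antagonist CRF1 0.00 and 0.30, and SFP1 -0.32 and 0.00, none of them called (adjusted p = 0.79, 0.33 and 0.36). Nuclear transport genes fell in 11 of 21 and rose in 4 (6 fell without YPD array 1, 7 without YPD array 2, and 1 rose with the YPD arrays alone). The importin of ribosomal proteins, KAP123, read -2.18 on both arrays, GSP1, the Ran GTPase, -1.43 and -1.03, and its paralog GSP2 2.38 and 1.74.

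**Figure D4:**
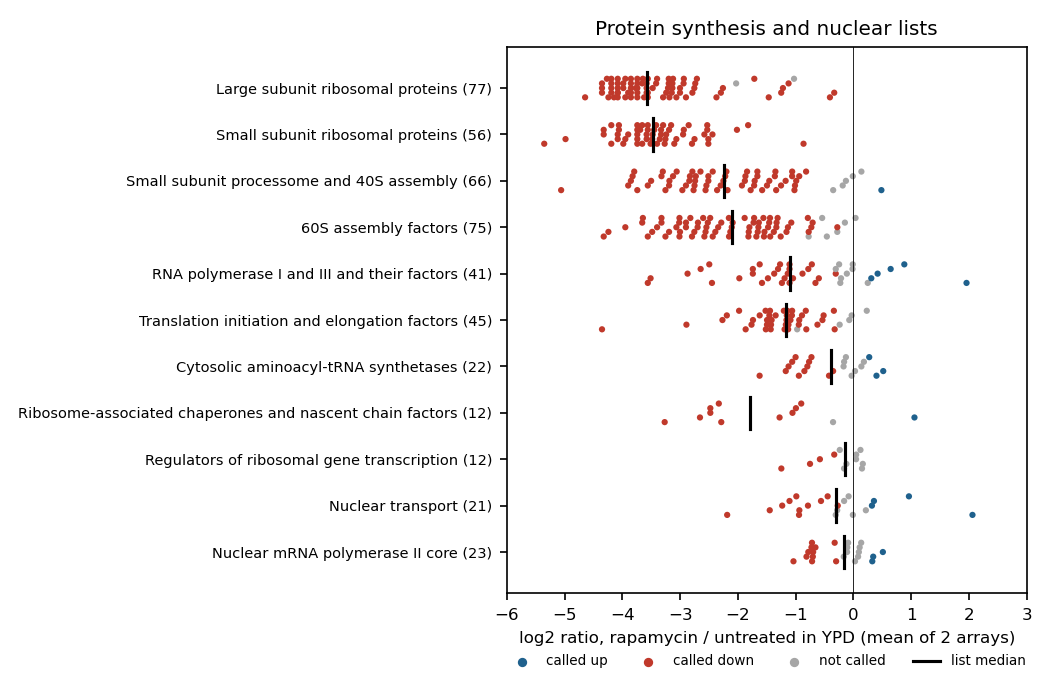
Each point is a measured gene at its mean log2 ratio over the YPD arrays (x axis), by list (rows, with the number measured), coloured by call as up (blue), down (red) or not called (grey); bars are list medians. The medians step from -3.58 and -3.46 for the ribosomal proteins to -2.23 and -2.11 for assembly, -1.16 for translation factors and -0.39 for tRNA synthetases; SSB1, GSP2 and RRN5 stand on the right.

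Mitochondrial genes differed by class. Citric acid cycle genes rose in 15 of 18 and fell in 1, with a median of 1.30. IDP1, mitochondrial NADP isocitrate dehydrogenase, read 3.34 and 3.14 (9.45-fold), CIT1, citrate synthase, 2.11 and 2.34, ACO1, aconitase, 1.82 and 1.92, and LSC2 1.82 and 2.09. MAE1, the malic enzyme, was the member that fell, by 0.88 ± 0.13, and it was not called without YPD array 1 or array 2 (adjusted p = 0.082 and 0.090). Retrograde regulators and targets, the genes through which mitochondria and TORC1 signal for glutamate supply, rose in 16 of 18. DLD3, a lactate dehydrogenase, read 3.13 and 3.42 and CIT2, the peroxisomal citrate synthase, 3.28 and 3.05. RTG1, an activator of the pathway, fell by 0.51 ± 0.09, and this was not called without YPD array 1 or array 2 (adjusted p = 0.062 and 0.077).

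Respiratory chain and ATP synthase genes rose in 25 of 35 and fell in 1, with a median of 0.62 (16 rose without YPD array 1 and 15 without YPD array 2, and none fell). COX5B, the isoform of a cytochrome oxidase subunit made at low oxygen, read 1.99 and 2.01 and COX6 1.04 and 1.05. Of the mitochondrial ribosomal proteins 26 of 70 fell and 5 rose, with a median of -0.19 (12 and 11 fell and 3 and 4 rose without YPD array 1 and 2, and 16 fell and 3 rose with the YPD arrays alone). The lowest, MNP1, stood at -1.05 ± 0.11. Import genes fell in 10 of 34 and rose in 5 (2 and 3 rose without YPD array 1 and 2, and 6 fell and 3 rose with the YPD arrays alone), with TIM23, the channel of the inner membrane, at -1.51 and -1.79. The shares that fell, 37.1% of mitochondrial ribosomal protein and 29.4% of import genes, were near the 31.2% of all features. The shares that rose, 7.1% and 14.7%, were below the 32.7% of all features.

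In carbon metabolism, glycolysis and fermentation genes rose in 6 of 25 and fell in 9 (5 without YPD array 1 or array 2). That was 24% and 36%, against 32.7% and 31.2% of all features. PYK2, the minor pyruvate kinase, read 1.82 and 1.71 while CDC19, the major one, had a mean of 0.14 ± 0.10 (adjusted p = 0.25). ADH1, the main fermentative alcohol dehydrogenase, read -1.40 and -1.15. Hexose transporters and glucose sensing genes rose in 5 of 24 and fell in 7 (0 and 1 rose without YPD array 1 and 2, and 3 with the YPD arrays alone). The share of them that rose, 20.8%, was below the 32.7% of all features. The share that fell, 29.2%, was near the 31.2% of all features. HXT2, a transporter of higher affinity, read -2.74 and -2.47 and HXT6 -1.32 and -1.25, whereas HXT3 had a mean of -0.16 ± 0.12 (adjusted p = 0.27). Glyoxylate and gluconeogenesis genes rose in 11 of 17 and fell in 2 (4 and 5 rose and 1 and 1 fell without YPD array 1 and 2). The enzymes of the glyoxylate cycle and gluconeogenesis differed. MLS1, malate synthase, read 2.20 and 2.28, but was not called without YPD array 1 or array 2 (adjusted p = 0.0696 and 0.0699). FBP1, fructose bisphosphatase, read 0.25 and 0.74 and lost its call in the same way (adjusted p = 0.053 and 0.215). ICL1, isocitrate lyase, stood at -0.14 ± 0.09 (adjusted p = 0.23) and PCK1 at -0.26 ± 0.11 (adjusted p = 0.095), neither past the threshold. ADR1, the activator of alcohol and peroxisomal genes, was far below them with -3.47 and -3.18.

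Of 52 general stress genes 42 rose, against 32.7% of all features, and 3 fell, with a median of 1.14 (1 fell without YPD array 1). DCS2, a regulator of mRNA decapping, read 3.08 and 2.62, HSP31 2.66 and 2.90, and TSA2, a peroxiredoxin, 2.67 and 2.51. CTT1, the cytosolic catalase, stood at 1.55 ± 0.11, and DDR2 read 2.96 and 1.89. HSP12 read 2.19 and 1.43 and was not called without YPD array 1 (adjusted p = 0.088). HSP30, a plasma membrane protein, fell by 0.71 ± 0.21, a call lost without YPD array 1 or array 2 (adjusted p = 0.335 and 0.212). Among the activators MSN4 read 1.91 and 2.11, while MSN2 had a mean of 0.14 ± 0.10 (adjusted p = 0.28), RIM15 of -0.06 ± 0.08 and GIS1 of 0.16 ± 0.10. The list of stress and quiescence regulators, which also holds SNZ1, rose in 5 of 22 and fell in 6 (3 and 4 without YPD array 1 and 2). That was 22.7% and 27.3%, against 32.7% and 31.2% of all features.

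Trehalose and glycogen genes rose in 13 of 20 and fell in 1 (7 and 8 rose and none fell without YPD array 1 and 2). NTH1, which splits trehalose, read 2.34 and 2.41, GLG1, the glycogen primer, 1.61 and 1.68, and TSL1, of trehalose synthesis, 1.56 and 1.48. The glycogen synthase genes differed: GSY2 read 1.23 and 1.56 and GSY1 -0.45 and 0.08 (adjusted p = 0.32). Heat shock chaperones rose in 7 of 29 and fell in 9 (5 fell without YPD array 1). That was 24.1% and 31.0%, against 32.7% and 31.2% of all features. The largest rises were in the small heat shock proteins, the disaggregase and SSE2, an exchange factor of Hsp70: HSP26 read 2.31 and 2.44, HSP42 1.82 and 1.97 and HSP104 1.27 and 1.28, and SSE2 had a mean of 1.82. CCT7, of the cytosolic chaperonin, and YDJ1, an Hsp40, fell by 0.88 ± 0.10 and 0.85 ± 0.09. Proteasome genes rose in 12 of 36 and fell in 4 (1 and 2 fell without YPD array 1 and 2, and 2 with the YPD arrays alone), with a median of 0.087. The share of them that rose, 33.3%, was near the 32.7% of all features. RPN4, their activator, read 0.73 and 0.77. Multidrug and aryl-alcohol genes rose in 11 of 31 and fell in 6 (2 without YPD array 1 or with the YPD arrays alone), led by AAD10 with 3.11 and 2.43 and the transporter gene ATR1 with 2.52 and 2.44. Here too the share that rose, 35.5%, was near that of all features. The probe annotated as YBT1, a vacuolar transporter, read -4.32 on both arrays, within the range of the ribosomal proteins. Whether that probe is rightly named was not tested.

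Of 43 genes of the TOR pathway itself and its phosphatase branch 19 rose and 8 fell (5 and 9 rose and 3 and 5 fell without YPD array 1 and 2, and 5 fell with the YPD arrays alone), with a median of 0.16. The shares were 44.2% up and 18.6% down, against 32.7% and 31.2% of all features. TOR1 had -0.67 and -0.27 (mean -0.47 ± 0.12) and lost its call without YPD array 1 (adjusted p = 0.134) and with the YPD arrays alone (adjusted p = 0.089), and TOR2 had 0.42 and -0.10 (adjusted p = 0.37). LST8, a subunit of both TOR complexes, rose by 0.75 ± 0.08. YPK2, a kinase downstream of TORC2, read 2.52 and 2.46, the highest of the list. The phosphatase gene SIT4 fell by 0.65 ± 0.09, a call lost without YPD array 1 (adjusted p = 0.055), and SAP185, which associates with it, read -1.40 and -2.12. FPR1, the rapamycin receptor, was not analysed here.

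Histone genes fell in 9 of 11 and none rose, against 31.2% of all features down, with a median of -0.70 (5 without YPD array 1 and 8 without YPD array 2). HHF1 and HHF2, the histone H4 genes, read -1.43 and -1.09, and -1.0 and -1.09. G1 genes fell in 10 of 19 and rose in 1 (5 fell without YPD array 1 or array 2). The share of G1 genes that fell was 52.6%, against 31.2% of all features. CLB6 and CLB5, S phase cyclins, read -1.43 and -1.32, and -1.25 and -1.09. CLN3, the upstream G1 cyclin, read -0.62 and -1.18, while CLN1 and CLN2 had means of -0.28 ± 0.10 and -0.09 ± 0.10 that did not pass (adjusted p = 0.063 and 0.42). Mitotic genes fell in 11 of 20 and rose in 2 (7 fell without YPD array 1, and 1 rose without array 2), with CLB2 at -0.62 and -0.94. The share of mitotic genes that fell was 55%, against the same 31.2%. Replication genes fell in 16 of 42 and rose in 6 (9 fell and 3 rose without YPD array 1 or array 2, and 9 fell with the YPD arrays alone). The share of replication genes that fell was 38.1%, against 31.2% of all features. POL30, the sliding clamp, read -1.69 and -1.51 and RNR1, of ribonucleotide reductase, -1.0 on both arrays. Meiotic genes rose in 6 of 38 and fell in 6 (3 and 3 rose and 1 and 2 fell without YPD array 1 and 2), and IME1, the inducer of meiosis, had a mean of -0.08 ± 0.09 (adjusted p = 0.50). Each share of meiotic genes was 15.8%, against 32.7% up and 31.2% down of all features. Pheromone and mating genes rose in 18 of 36 and fell in 5 (7 and 10 rose and 1 and 2 fell without YPD array 1 and 2, and 11 rose with the YPD arrays alone), among them STE2, a pheromone receptor, with 1.82 and 2.42.

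At the cell surface, 24 of 51 cell wall genes rose and 6 fell (3 fell without YPD array 1 or array 2). SED1, a wall protein abundant in stationary phase, read 2.61 and 2.30, PST1 2.46 and 2.38, and BGL2, a glucanase, 2.09 and 2.06. PIR3 read 2.95 and 1.79, and GAS3 -1.47 and -1.51. Genes of the actin cytoskeleton, a list added for comparison, rose in 23 of 32 and fell in 5 (2 without YPD array 2 and 3 with the YPD arrays alone), with a median of 0.69. That was 71.9% and 15.6%, against 32.7% and 31.2% of all features. The share that rose was near the 71.4% of respiratory chain genes and of allantoin and urea genes. CAP2, of the capping protein, read 2.04 and 1.54, ARC19, of the Arp2/3 complex, 1.51 and 1.63, and ACT1, actin, 0.69 and 0.88. ACT1 is often used to normalise transcript levels, and it was called up on the scale of these arrays. Ergosterol genes rose in 13 of 25 and fell in 1 (9 and 5 rose without YPD array 1 and 2, and 8 with the YPD arrays alone), for example ERG9, squalene synthase, at 1.05 ± 0.09. Its activator ECM22 fell by 1.12 ± 0.08. Fatty acid and phospholipid genes fell in 13 of 29 (44.8%) and rose in 7 (24.1%), against 31.2% and 32.7% of all features. They ranged from ELO3, a fatty acid elongase, with -2.56 and -2.25, to OPI3, a phospholipid methyltransferase, with 2.90 and 2.76. Peroxisome genes rose in 18 of 36 and fell in 3 (1 without YPD array 1), with PXA2, a fatty acid importer, at 1.86 ± 0.15. Secretory pathway genes rose in 10 of 40 and fell in 14 (3 and 2 rose without YPD array 1 and 2, and 3 with the YPD arrays alone), with SEC53 at -1.22 ± 0.14. Those shares, 25% and 35%, stood against 32.7% and 31.2% of all features.

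Among ion regulons the phosphate genes mostly fell: 14 of 24 fell and 3 rose, with a median of -0.42 (10 and 9 fell without YPD array 1 and 2). The shares were 58.3% down and 12.5% up, against 31.2% and 32.7% of all features. PHO90, a low-affinity transporter, read -1.84 and -2.18, the acid phosphatase genes PHO11 and PHO12 had means of -1.85 ± 0.12 and -1.84 ± 0.11, and PHO5 stood at -1.44 ± 0.11. PHO11 and PHO12 are nearly identical, and their probes may share signal. PHM8, a nucleotidase, rose instead with 2.38 and 2.53. Iron genes rose in 13 of 29 (44.8%) and fell in 5 (17.2%). Without YPD array 1 and 2, 6 and 6 rose and 2 and 4 fell, and 8 rose and 3 fell with the YPD arrays alone. HMX1, haem oxygenase, read 3.42 and 2.93, and FET3 and FTR1, the high-affinity uptake pair, fell by 0.84 ± 0.08 and 1.01 ± 0.10. Zinc and copper genes rose in 9 of 19 (47.4%) and fell in 7 (3 and 5 rose and 1 and 3 fell without YPD array 1 and 2). The share that fell, 36.8%, was near the 31.2% of all features. Of the vacuolar zinc transporters, ZRT3, an exporter, stood at 1.01 ± 0.08 and ZRC1, an importer, at -1.03 ± 0.08.

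**Figure D5:**
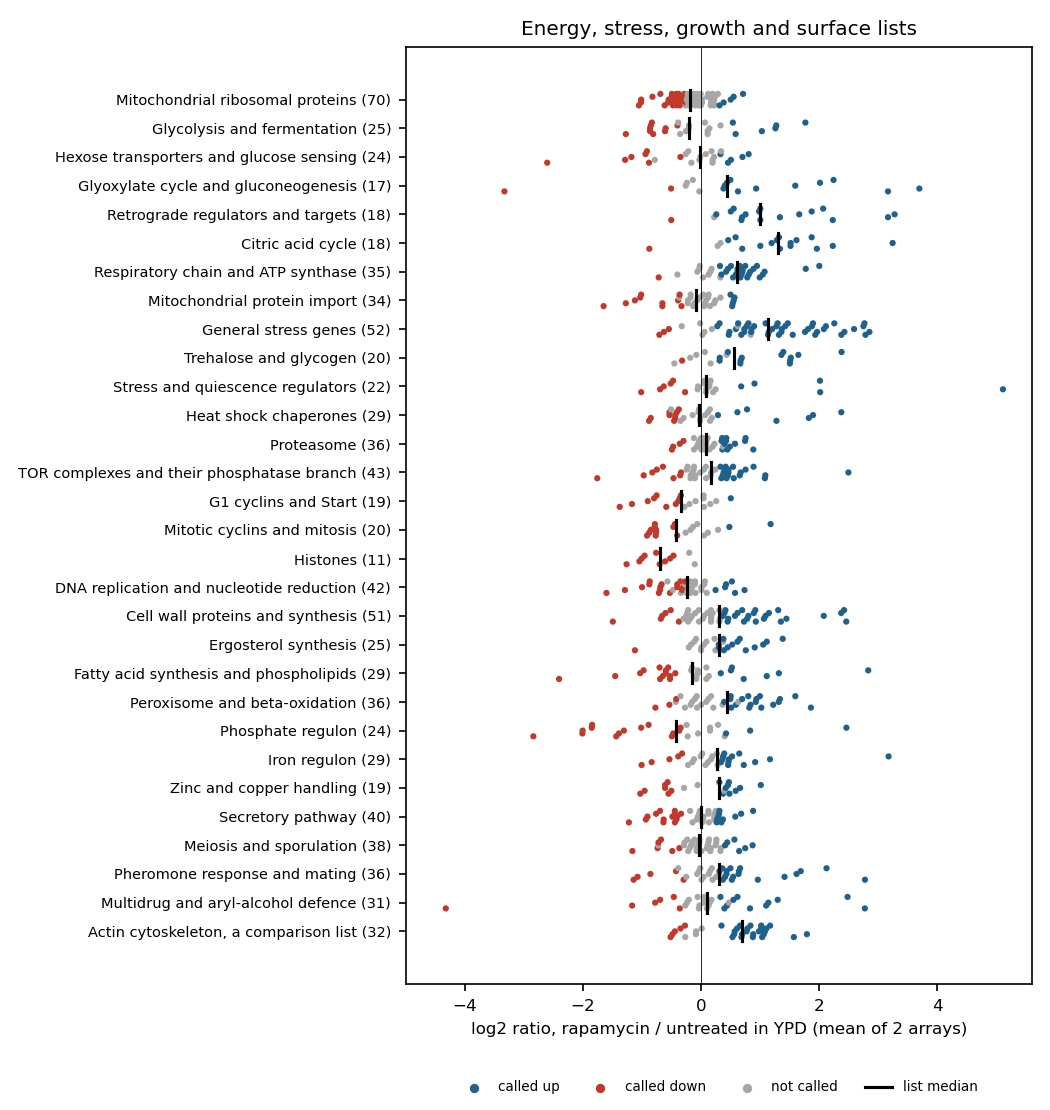
Each point is a measured gene at its mean log2 ratio over the YPD arrays (x axis), by list (rows, with the number measured), coloured by call as up (blue), down (red) or not called (grey); bars are list medians. The citric acid cycle (1.30), general stress (1.14) and retrograde lists (0.99) have the highest medians and the histones the lowest (-0.70); the point near -4.32 is the YBT1 probe and the one at 5.11 is SNZ1.

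The 573 unnamed probes included strong responses that cannot be tied to a gene here: 121 rose and 209 fell, with a median of -0.12. The shares were 21.1% and 36.5%, against 32.7% and 31.2% of all features. The highest of these read 4.56 and 4.85 and the lowest -4.32 and -5.06. Features far apart on the YPD arrays deserve separate mention. HAB1 read 1.54 and 6.63 and was called (adjusted p = 0.034), but not with the YPD arrays fitted alone (adjusted p = 0.131). MXR1, methionine sulfoxide reductase, read -1.25 and -4.32 and was likewise not called in that fit (adjusted p = 0.108). EFB1, a translation elongation factor, read -2.18 and 0.24 and was not called (adjusted p = 0.19).

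Adjacent genes sometimes moved together, as read from the order of genes in the RefSeq table of assembly R64 and counting runs of called genes of 1 sign at least 2-fold. The run with the highest value was CTF13, SNO1, SNZ1 and MTG1, all up, between 1.60 and 5.11. DAL1, DAL4 and DAL2 formed another, between 1.59 and 3.0. TIM12, PHO3 and PHO5 were down together, between -2.84 and -1.27, although TIM12 was not called with the YPD arrays alone (adjusted p = 0.056). RPS14B, RPS22A and RPL39 were down between -5.35 and -3.06. How often neighbours would do so by position alone was not tested.

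The response was then set against that in MDN by a contrast in the same fit. Of 5878 features with values in both media, the response differed for 1552 (26.4%), higher in YPD for 773 (13.2%) and higher in MDN for 779 (13.3%). No difference was called with any 1 of the 4 arrays left out, where limma gave lowest adjusted p-values between 0.075 and 0.122 and between 1498 and 2201 features at an unadjusted p under 0.05. Of the features called in YPD, 1196 were up in both media and 990 down in both. A further 77 were up in YPD and down in MDN, and 88 the reverse.

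The largest of these differences was that of GAP1, followed by ADE17 and SHM2. GAP1, at 6.23 and 6.14 in YPD, read -0.76 and -1.06 in MDN, a difference of 7.09 ± 0.15 (adjusted p = 0.00033). MEP2 read 0.32 and 0.11 in MDN, and DAL3 0.34 and 0.10. On the single array of untreated MDN over untreated YPD, which has no replicate, the same genes read 6.75, 6.30 and 2.22. Of all features, 13.2% had a called higher ratio in YPD and 13.3% in MDN. Of the 11 nitrogen permeases 9 had a higher ratio in YPD and none a higher one in MDN, with a MDN median of 0.22. These counts go by sign and not by size: FUI1, 1 of the 9, fell by 0.88 in YPD and by 2.22 in MDN. For lysine 8 of 9 genes had a higher ratio in YPD and none in MDN, with a MDN median of -0.64, and LYS4 fell by 0.68 in YPD and by 2.19 in MDN. DAL5 was up in both media, 4.65 ± 0.18 in YPD and 3.58 ± 0.18 in MDN.

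ADE17 had means of 3.18 in YPD and -3.47 in MDN, SHM2 of 2.33 and -3.84, and GCV2 of 3.16 and -1.89. These 3 genes, all tied to one-carbon metabolism, were high in untreated MDN over YPD too, at 3.23, 2.74 and 1.70. ARO9 and ARO10 had the same opposition, 4.01 against -1.11 and 4.39 against -0.46, but were lower in untreated MDN than in YPD, at -2.18 and -0.92. In the reverse direction, the permease genes TAT1 and OPT1, which fell in YPD, had MDN means of 0.21 and 0.24, neither called (adjusted p = 0.33 and 0.20), and differed by 2.84 and 2.73. YHB1, a nitric oxide oxidoreductase, fell by 1.44 ± 0.10 in YPD and rose by 1.06 ± 0.10 in MDN.

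The difference was called for all 11 histone genes, each with a higher ratio in MDN, where 8 rose and the median was 0.56. For the proteasome 17 of 36 were higher in MDN and none in YPD. Of all features, 13.3% were called higher in MDN and 13.2% higher in YPD. Ribosomal proteins fell in both media, and 30 of 77 large subunit and 23 of 56 small subunit genes were less low in YPD, while 36 of 74 factors of 60S assembly and 26 of 66 of 40S assembly were lower in YPD. These counts depended on the scale of the arrays. With all arrays brought to equal spread, the ribosomal protein genes higher in YPD numbered 61 and 44. For 60S assembly 14 genes were then higher in MDN and 3 in YPD, and for 40S assembly 7 and 5. With ratios limited to between 0.05 and 20, the ribosomal protein genes higher in YPD numbered 18 and 16.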

How the data were processed

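Poly(A) RNA of S288c was compared on 6 dual-channel arrays. The authors deposited 1 table of log2 ratios, whose base and 2-decimal rounding were found from the values: 100% of the ratios are whole multiples of 0.01 (tolerance 0.0001). The sources used here do not give the scanner, normalization or filters. Depth has no meaning for these arrays, and their number limits precision. Symbols came from the platform annotation: 5595 probes had 1 symbol and 615 none, and all 5595 matched the RefSeq gene table by gene number. No sequence or coordinate is printed, since no genome was given.

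Probes of a gene were averaged. The 4 rapamycin arrays were fitted with limma 3.58.1 (R 4.3.3), using lmFit with 1 mean for each medium and then eBayes, giving 2 residual and 2.68 prior degrees of freedom and a median standard error of 0.097 for a YPD mean. YPD means were tested against 0, and MDN minus YPD as a contrast, two-sided, with Benjamini-Hochberg adjustment; 390 tested features had 1 MDN value and 65 none. On simulated data the YPD test called 34%, 88%, 96% and 100% of features changed 1.5-, 2-, 4- and 8-fold, and 0.157% of unchanged ones (5943 features). There 50 features were changed by each fold and 5743 were unchanged, with no change in MDN. In the real data 64% of features were called. The adjusted threshold depends on the share that changed, so the simulated rates do not carry over to the real calls. Arrays of the 2 media share replicate numbers in the labels, but deviations of same-numbered arrays correlated at -0.10, so the numbers were not taken as pairs.

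The 489 named genes were the 15 highest and 15 lowest calls, up to 6 called members and 2 opposite ones of each list, a fixed set of genes, and the 10 largest differences between media each way; others are said to be chosen after their values were seen, or are the members that a count leaves. The members and the 61 lists were chosen with earlier results of these data known. Lists are described by counts and medians, with no set test. Of 6 arrays, the MDN over YPD array gave values only. Figures used Python 3.11.15 and matplotlib 3.10.9.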

Additional observations from a re-analysis of the deposited data

Results flagged for a closer look

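The response to rapamycin differed between media for 1552 of 5878 features (26.4%) by limma with Benjamini-Hochberg adjustment. Of the named genes, 33 were called in both media with opposite signs and with a called difference, and their values are the YPD mean minus the MDN mean on the log2 scale. With any 1 array left out none of these 33 differences was called, nor was any other.

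In 19 genes the ratio rose in YPD and fell in MDN. For nitrogen uptake and use, the general amino acid permease GAP1 differed by 7.09, the ammonium permease MEP1 by 2.05, the GATA activator GAT1 by 2.0 and allantoicase DAL2 by 3.35. The aromatic amino acid transaminase ARO9 differed by 5.12 and the decarboxylase ARO10 by 4.86. For one-carbon and purine metabolism, the differences were 6.65 for ADE17, 6.16 for the serine hydroxymethyltransferase SHM2, 5.05 for GCV2 of the glycine cleavage complex and 3.14 for ADE1. For amino acid synthesis, they were 3.93 for HIS4 and 2.27 for HIS1, 3.84 for LEU2 and 1.26 for ILV2. In the lysine pathway, LYS9 differed by 3.14, LYS1 by 3.12, LYS20 by 1.84 and LYS21 by 1.67. The rise of LYS9 in YPD was not called without YPD array 1 or array 2. The ribosome-associated chaperone gene SSB1, whose probe may share signal with SSB2, differed by 1.92.

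In the other 14 genes the ratio fell in YPD and rose in MDN. The falls of CUP1-1, PDC6, FHL1 and HSP30 in YPD were not called without YPD array 1 or array 2. Those of BAP2, HTA1 and BLM10 were not called without YPD array 1. The histone genes gave -1.03 for HTB1, -1.56 for HTA1, -1.58 for HHF2 and -1.95 for HHF1, and the S-phase cyclin CLB5 gave -1.55. The TORC1 substrate kinase SCH9 gave -1.23 and FHL1, a factor at ribosomal protein promoters, -0.64. The proteasome subunit PRE2 gave -0.85 and the proteasome activator BLM10 -1.05. The branched-chain amino acid permease BAP2 gave -2.0, the metallothionein CUP1-1 -2.12, the minor pyruvate decarboxylase PDC6 -2.16, the membrane heat shock gene HSP30 -1.81 and the flavohaemoglobin YHB1 -2.50.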

How the results depend on the processing

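With 2 arrays per medium, precision is limited by their number, and when 1 is left out its partner is taken to be as variable as the pair in the other medium. Leaving out 1 array at a time gave 2272 to 2980 called features (3801 with all), 1196 to 1547 up (1946) and 1076 to 1433 down (1855), and 0 in each case for the difference between media (1552). With 1 array left out the lowest adjusted p for that difference lay between 0.0752 and 0.122, and 1498 to 2201 features had an unadjusted p under 0.05 (2509 with all). Testing for a change above 1.2-fold (limma treat) left 2518 features, 1206 of them down, and 654 differences, since that test asks for a larger change. Requiring both YPD arrays to be at least 2-fold in one direction, with no test, left 1131 features, 530 up and 601 down. With the replicate number as a replicate block, 3650 features (1887 up, 1763 down) and 1177 differences were called, and of 459 named calls CAN1, LYP1, RPO31 and TCO89 were lost. The crossed replicate block, chosen after seeing the data, called 3774 and 1391. Median centring, equal scale, features on all 4 arrays, the YPD arrays alone, separate probes, a robust prior and limited ratios kept all 4 counts within 1.5 times, where they could be fitted, and no direction reversed. The promoter motif search and its wider window were not run, because no promoter table was given.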

Other observations

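Genes of the cell wall integrity pathway, whose MAP kinase Slt2 answers cell wall stress, were chosen after their values were seen. SLT2 itself read 2.53 and 2.34 on the log2 scale in YPD, and KDX1, a kinase gene induced by this pathway, read 3.77 and 3.66. PRM5, a target of the pathway's factor Rlm1, read 2.76 and 2.79, and RLM1 0.87 and 0.82. The means were 2.35 for GFA1, which makes the precursor of chitin, 1.37 for the Slt2 phosphatase gene SDP1, and 1.42 and 1.02 for the wall sensor genes MTL1 and MID2. By limma all of these rose, while BCK1 (-0.68) and PKC1 (-0.49), the kinases upstream of Slt2, fell. The kinase genes MKK1 and MKK2 read 0.08 and -0.26 and the sensor gene WSC2 -0.16, none of them past the threshold.

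Some of the furthest moved genes outside the lists were also chosen after their values were seen. SRL3 read 4.13 and 3.61, and SRY1, a dehydratase of hydroxyaspartate, 3.52 and 4.05. The mitochondrial GTP carrier gene GGC1 read 3.11 and 3.36 and the sulfite pump gene SSU1 2.60 and 2.58. At the other end, the adenine deaminase gene AAH1 read -3.84 and -3.32. SYO1, the carrier of ribosomal proteins of the 5S particle, read -3.84 and -3.47. NCS2, needed for thiolation of tRNA, read -4.06 and -3.47. The arginine methyltransferase gene RMT2 read -4.06 and -4.32.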
